A study of Rattus norvegicus with 105 samples.

Results

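Gastrocnemius muscle of rats that carried aluminum pellets was compared with gastrocnemius of rats that carried tantalum pellets for the same time. The comparison takes the 9 aluminum arrays and the 9 tantalum arrays of 1, 6 and 12 months, 18 of the 105 arrays of the series. The 6 groups were aluminum at 1, 6 and 12 months and tantalum at 1, 6 and 12 months, with 3 arrays each, in male Sprague-Dawley rats. Every rat, in the tantalum groups as in the aluminum groups, had undergone surgery and carried 4 pellets, 2 in each hind limb muscle. Tantalum, a metal that is used in surgical implants, served as the implanted sham, so no array of the comparison stands for muscle without a pellet. Each array was hybridised with 250 ng of RNA pooled from 2 to 3 animals. The p-values below therefore measure the spread between pools, and the spread between single animals is averaged within them. The arrays were Clariom S Rat arrays, on which a set of short probes reports 1 gene. Levels are log2 intensities, on which a step of 1 is a doubling, and a level is compared here between samples and not between genes.

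The label of the tissue was checked against genes of the muscle fibre. Among 16 fibre markers with a probe set, 15 lay at or above the 99.3 percentile of all probe sets by mean level, and Trim63, a ubiquitin ligase of muscle, lay at the 96.8 percentile. Alpha-actin of skeletal muscle (Acta1) lay between 13.44 and 14.10 in the 18 arrays, and creatine kinase M (Ckm) between 12.58 and 13.43. Array medians ranged over 6.40 to 6.50, and each array correlated with the others of its own group at a mean r of 0.986 to 0.990.

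A pellet left in tissue is met by a foreign body response. Monocytes enter the site and become macrophages, some macrophages fuse into foreign body giant cells, and fibroblasts lay down a capsule of collagen and other matrix proteins around the object. Muscle fibres near the site can be lost and rebuilt, and the gastrocnemius itself is a mixture of slow, oxidative fibres and fast, glycolytic fibres whose contractile proteins come from different genes.

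At 1 month, 6 probe sets passed an adjusted p of 0.05 in limma's moderated test over 22954 probe sets, which is 0.0261% of those tested, and all 6 were lower with aluminum. Fits on the 18 arrays alone or on the 6 arrays of 1 month alone called 0. The 5 that carry a gene symbol were Fxyd1, Rhog, Sec23b, Tnfrsf1a and Ly6e. Fxyd1 encodes phospholemman, a small membrane protein that regulates the sodium pump of muscle. Rhog encodes a small GTPase, Sec23b a component of the COPII coat that carries cargo out of the endoplasmic reticulum, Tnfrsf1a the receptor 1 for tumour necrosis factor, and Ly6e a lipid-anchored surface protein of the LY6 family. With aluminum these genes stood at 54.3% to 69% of their linear level with tantalum.

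The sequences just before the annotated starts of these genes are shown so that 4 of the genes that passed can be set beside each other. They are the 120 bases upstream of the start in the RefSeq promoter table (build GRCr8), printed 5′ to 3′ on the strand of the gene, and 4 of the 5 named genes matched that table. Capitals mark every match, on either strand, to GGGCGG (a GC box), CCAAT and TATAAA.
Fxyd1, chr1:95418581-95418700, minus strand: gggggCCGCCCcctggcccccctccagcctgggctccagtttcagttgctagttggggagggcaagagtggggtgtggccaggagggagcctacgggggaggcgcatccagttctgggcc
Rhog, chr1:166042202-166042321, minus strand: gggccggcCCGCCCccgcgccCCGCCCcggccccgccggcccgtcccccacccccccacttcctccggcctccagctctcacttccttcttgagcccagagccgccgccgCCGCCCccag
Sec23b, chr3:152392563-152392682, plus strand: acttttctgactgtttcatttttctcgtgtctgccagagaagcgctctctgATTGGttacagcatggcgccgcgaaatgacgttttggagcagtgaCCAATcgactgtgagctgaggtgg
Tnfrsf1a, chr4:159836999-159837118, plus strand: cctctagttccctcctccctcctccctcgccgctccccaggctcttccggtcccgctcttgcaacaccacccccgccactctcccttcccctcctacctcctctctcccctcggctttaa
The 4 sequences share no motif of the search. Fxyd1 holds 1 GC box and Rhog holds 3 in the 120 bases, while Sec23b holds 2 CCAAT boxes and no GC box, and Tnfrsf1a has no match in this window. Over all 33469 promoters of 300 bases in the table, 33.1% hold GGGCGG, 37.5% hold CCAAT and 14.2% hold TATAAA. These shares are for a longer window than the 120 bases shown. In their own 300 bases Fxyd1 holds 1 GC box and Rhog holds 5. Sec23b holds 2 CCAAT boxes and 1 TATAAA there, and Tnfrsf1a has no match.

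Fxyd1 measured 10.38, 10.30 and 10.51 in the 3 aluminum arrays and 11.09, 11.11 and 10.90 in the 3 tantalum arrays of 1 month. The groups did not overlap, and the difference was -0.64 ± 0.11 (log2, SE from the fit; adjusted p = 0.00186). Ly6e measured 7.77, 7.77 and 7.56 with aluminum, against 8.53, 8.49 and 8.73 with tantalum. Again every aluminum pool lay below every tantalum pool, by -0.88 ± 0.18 on average (adjusted p = 0.0403). Sec23b measured 5.34, 5.94 and 5.87 with aluminum, and 6.51, 6.42 and 6.41 with tantalum. The tantalum pools lay close together and the first aluminum pool was the lowest of the 6 (-0.73 ± 0.15, adjusted p = 0.0403). Tnfrsf1a measured 7.68, 7.39 and 7.57 with aluminum, against 8.08, 8.07 and 8.16 with tantalum, with no overlap (-0.56 ± 0.12, adjusted p = 0.0435). Rhog measured 7.50, 7.40 and 7.61 with aluminum and 7.63, 8.19 and 8.30 with tantalum, so the first tantalum pool lay just above the highest aluminum pool (-0.54 ± 0.11, adjusted p = 0.0399). The probe set without a symbol, TC1700000032.rn.2, measured 7.90, 7.96 and 8.03 with aluminum, against 8.71, 8.62 and 9.22 with tantalum (-0.89 ± 0.19, adjusted p = 0.0435). No gene name is given to it here. Without any one of the aluminum pools 0 or 1 probe sets passed at 1 month, and without the second tantalum pool 21 passed.

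The differences of the same genes were smaller at the later months. The genes were chosen by their difference at 1 month, so smaller values at other months are partly fixed by the choice. The moderated F test of a change between 1, 6 and 12 months called no probe set (lowest adjusted p = 0.0581). Fxyd1 and Rhog passed in the contrast of 12 months against 1 month, which was added after the data had been seen. Tnfrsf1a, Ly6e and Sec23b did not. The aluminum minus tantalum difference of Fxyd1 was 0.02 at 6 months and 0.11 at 12 months, that of Rhog was -0.00 and 0.24, that of Tnfrsf1a was -0.10 and 0.07, that of Ly6e was -0.05 and 0.11, and that of Sec23b was -0.07 and -0.08.

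The 7 other metals implanted for 1 month (cobalt, copper, depleted uranium, iron, nickel, lead and tungsten, 21 arrays) give levels beside which both groups can be set. Aluminum and tantalum were each set against the mean of these metals in the same fit, as comparisons added after the data had been seen. They share arrays with the aluminum minus tantalum difference, which is the first minus the second. The genes were chosen by that difference, so a high tantalum or a low aluminum level beside the other metals is partly fixed by the choice. Fxyd1, Tnfrsf1a and Rhog were higher with tantalum than with the other metals. Relative to the mean of the other metals, Fxyd1 lay at -0.14 ± 0.08 with aluminum (adjusted p = 0.677) and at 0.50 ± 0.08 with tantalum (adjusted p = 0.000318), and the lowest, median and highest of the 21 other arrays were 10.31, 10.46 and 11.04. Tnfrsf1a lay at -0.08 ± 0.09 with aluminum (adjusted p = 0.905) and at 0.48 ± 0.09 with tantalum (adjusted p = 0.00287), where the other arrays had 6.77, 7.68 and 8.14. Rhog lay at -0.18 ± 0.08 with aluminum (adjusted p = 0.519) and at 0.36 ± 0.08 with tantalum (adjusted p = 0.0289), where the other arrays had 7.26, 7.69 and 8.04. The tantalum call of Rhog was lost in 2 of 9 alternatives of the limma fit, with a difference down to 0.23 and an adjusted p up to 0.467. Those of Fxyd1 and Tnfrsf1a held in all 9. For all 3 genes the mean of each of the 7 other metals lay below that of tantalum. Tungsten had the highest mean of the other metals for all 3 genes, 10.94 for Fxyd1, 8.02 for Tnfrsf1a and 7.99 for Rhog, next below tantalum. The labels record no array batch or processing day, so no batch was entered in the fit.

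Ly6e and Sec23b passed as lower with aluminum than with the other metals, and lay above the other metals with tantalum without passing. Both aluminum calls were lost without the second or without the third aluminum pool, where no probe set passed. Ly6e lay at -0.56 ± 0.14 with aluminum (adjusted p = 0.0436) and at 0.33 ± 0.14 with tantalum (adjusted p = 0.46), where the other arrays had 7.48, 8.26 and 9.00. Sec23b lay at -0.49 ± 0.11 with aluminum (adjusted p = 0.0364) and at 0.24 ± 0.11 with tantalum (adjusted p = 0.566), where the other arrays had 5.67, 6.24 and 6.66. For both genes the means of all 7 other metals lay above that of aluminum. For Ly6e depleted uranium (7.85) and lead (7.87) had the means nearest to that of aluminum (7.70). One lead array (7.48) lay below all aluminum arrays.

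**Figure D1:**
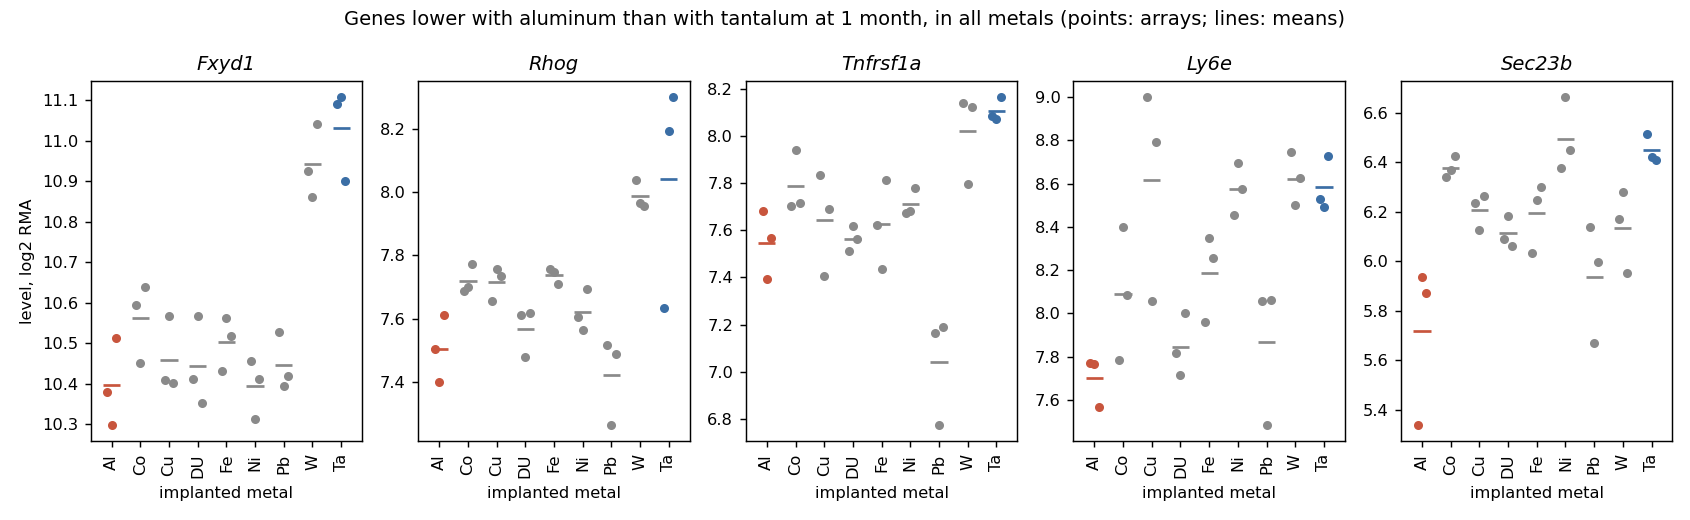
Log2 level at 1 month of the 5 named genes that passed in aluminum minus tantalum, by implanted metal, with aluminum on the left and tantalum on the right. Each point is 1 array of pooled RNA and the bar is the mean of 3. Fxyd1, Rhog and Tnfrsf1a stand high with tantalum and next with tungsten, whereas Ly6e and Sec23b have their lowest mean with aluminum. Some arrays of other metals overlap those of aluminum in both genes.

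No gene passed as higher with aluminum at 1 month. The higher genes with the smallest p among those whose groups did not overlap were Stard10, Nck2, Wnt4, Or6z7 and Pgm2l1, with adjusted p of 0.0962 to 0.139. Wnt4, a secreted signalling ligand, measured 7.17, 7.04 and 7.27 with aluminum, against 6.64, 6.49 and 6.86 with tantalum (0.49 ± 0.12, adjusted p = 0.114). Its tantalum arrays lay at -0.40 ± 0.09 relative to the other metals (adjusted p = 0.0336). That call was lost in 2 of 9 alternatives of the limma fit, with an adjusted p up to 0.505. Nck2, an adaptor protein of receptor tyrosine kinase signalling, measured 7.88, 8.04 and 7.93 with aluminum, and 7.53, 7.62 and 7.14 with tantalum (0.52 ± 0.13, adjusted p = 0.0962). Stard10, a lipid transfer protein, measured 9.12, 9.23 and 9.07 with aluminum, against 8.67, 8.70 and 8.62 with tantalum (0.48 ± 0.12, adjusted p = 0.0962). That all 3 genes were apart between the metals was fixed by this choice.

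Genes of the foreign body response were low with aluminum at 1 month, though none of the members listed passed against tantalum. Of the macrophage markers, 19 were measured and all 19 differences were below 0, with a median of -0.48 beside 0.01 over all probe sets. For 7 of the 19, all aluminum arrays lay below all tantalum arrays, which held for 7.71% of all probe sets at 1 month, and the reverse held for 7.74%. In bulk tissue, fewer macrophages and less of these transcripts per macrophage cannot be told apart. The mean level of the list was 6.79, 6.61 and 6.56 in the aluminum arrays, against 6.99, 6.81 and 7.71 in the tantalum arrays. Summed on the linear scale the list ran over 2469 to 2904 in the aluminum arrays and 2953 to 6617 in the tantalum arrays. The third tantalum array was the highest by far, and without it the median difference was -0.16. Without that array 7 probe sets passed at 1 month, against the 6 with it. Of the 19 markers, 1 was below the median of the control probe sets in the third aluminum array, and none was in the other 5 arrays.

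Macrophage members are named here after their values were seen. Cybb, the membrane subunit of the phagocyte NADPH oxidase, measured 7.65, 7.17 and 7.06 with aluminum, against 8.56, 7.53 and 9.02 with tantalum (-1.08 ± 0.30, adjusted p = 0.164). Fcer1g, the signalling chain shared by several Fc receptors, measured 7.37, 7.32 and 7.03 with aluminum, and 7.82, 7.52 and 8.96 with tantalum (-0.86 ± 0.24, adjusted p = 0.173). Laptm5, a lysosomal membrane protein of blood cells, measured 6.84, 7.10 and 6.78 with aluminum, against 7.46, 7.33 and 8.23 with tantalum (-0.77 ± 0.22, adjusted p = 0.178). In these 3 genes the third tantalum array was again the highest, and the groups still did not overlap except for Cybb. Cd68, a lysosomal protein of macrophages, measured 7.40, 6.89 and 6.88 with aluminum, and 7.51, 7.31 and 8.67 with tantalum, with overlap.

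Giant cell genes and genes of matrix-degrading macrophages were low as well. The list mean was 6.68, 6.59 and 6.59 with aluminum, against 7.33, 6.72 and 7.52 with tantalum. Of 15 measured members 14 were below 0 and 6 did not overlap, beside the 7.71% of all probe sets. The median was -0.33, and it was -0.50 without the first aluminum pool and -0.25 without the third tantalum pool. Mmp12, the macrophage elastase, measured 4.85, 4.84 and 4.70 with aluminum, against 8.94, 4.73 and 8.21 with tantalum (-2.50 ± 0.71, adjusted p = 0.177). The second tantalum pool was at the level of the aluminum pools, and the first and the third were more than 3 log2 steps above it. Lgals3, galectin 3, measured 6.98, 6.37 and 6.58 with aluminum, and 8.29, 7.27 and 8.05 with tantalum, with no overlap (-1.23 ± 0.30, adjusted p = 0.0962). Gpnmb, a glycoprotein of lipid-laden macrophages and osteoclasts, measured 6.73, 6.16 and 6.08 with aluminum, against 7.69, 6.77 and 7.67 with tantalum (-1.05 ± 0.39, adjusted p = 0.343).

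Matrix genes were low too. All 20 measured members of the extracellular matrix list were below 0 at 1 month, with a median of -0.29, and 6 did not overlap, beside 7.71% of all probe sets. Without the third tantalum pool the median was -0.13. Fibronectin (Fn1) measured 9.91, 9.51 and 9.73 with aluminum, against 10.33, 10.09 and 11.07 with tantalum (-0.78 ± 0.25, adjusted p = 0.254). Periostin (Postn), a matrix protein of healing tissue, measured 8.46, 7.62 and 8.22 with aluminum, and 8.97, 8.48 and 9.36 with tantalum (-0.83 ± 0.31, adjusted p = 0.373). For both genes all aluminum arrays lay below all tantalum arrays. Col4a1, a chain of basement membrane collagen, differed less, with 8.49, 8.35 and 8.41 against 8.63, 8.71 and 8.70 (-0.26 ± 0.12, adjusted p = 0.493).

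Other lists with a role at an implant had smaller medians at 1 month. Of 23 chemokines and cytokines, 18 were below 0, with a median of -0.28 that was -0.16 without the second aluminum pool or without the third tantalum pool. The chemokine Ccl9 measured 4.75, 4.55 and 4.68 with aluminum, against 6.15, 4.95 and 7.20 with tantalum (-1.44 ± 0.37, adjusted p = 0.129). The B cell chemokine Cxcl13 measured 4.88, 4.86 and 4.34 with aluminum, and 6.09, 5.11 and 8.04 with tantalum (-1.72 ± 0.67, adjusted p = 0.386). Both chemokines were highest in the third tantalum pool and close to the aluminum levels in the second. All 13 complement genes were below 0, with a median of -0.22, and of -0.13 without the third tantalum pool. The metal-binding metallothionein Mt2A measured 9.50, 9.22 and 9.08 with aluminum, against 9.81, 9.99 and 10.84 with tantalum (-0.95 ± 0.24, adjusted p = 0.114). Mt1, its paralogue, measured 7.38, 7.03 and 7.38 with aluminum, and 7.69, 7.72 and 8.54 with tantalum (-0.72 ± 0.24, adjusted p = 0.285). Neither metallothionein overlapped between the groups, where 7.71% of all probe sets were apart in this direction. Both were highest in the third tantalum pool. Across alternatives the difference ran over -1.151 to -0.633 for Mt2A and -0.868 to -0.440 for Mt1. Over the 12 measured metallothionein and zinc transporter genes, by contrast, 6 were above and 6 below 0, with a median of -0.01.

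Schwann cell and myelin genes ran the other way. Of 15 measured, 14 were above 0 at 1 month, with a median of 0.24, and 3 did not overlap, where 7.74% of all probe sets were apart in this direction. Without the third aluminum pool the median was 0.06, and without the first tantalum pool it was 0.14. Periaxin (Prx), a protein of the myelin sheath, measured 8.07, 7.99 and 8.19 with aluminum, against 7.89, 7.75 and 7.89 with tantalum (0.24 ± 0.11, adjusted p = 0.459). Against the other metals the list's median was 0.02 with aluminum and -0.26 with tantalum.

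At the later months the macrophage list came closer to 0, with medians of -0.04 at 6 months and 0.06 at 12 months, and that of the matrix list was -0.11 and -0.06. At 3 months, outside the months described, the mean level of the macrophage list was 6.68, 6.83 and 6.68 with aluminum, against 7.13, 7.53 and 6.97 with tantalum. The groups were apart there, with a median difference of -0.43. The giant cell list at 3 months had 6.78, 6.90 and 7.01 with aluminum, against 7.54, 7.94 and 6.71 with tantalum, with the third tantalum pool the lowest of the 6.

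**Figure D2:**
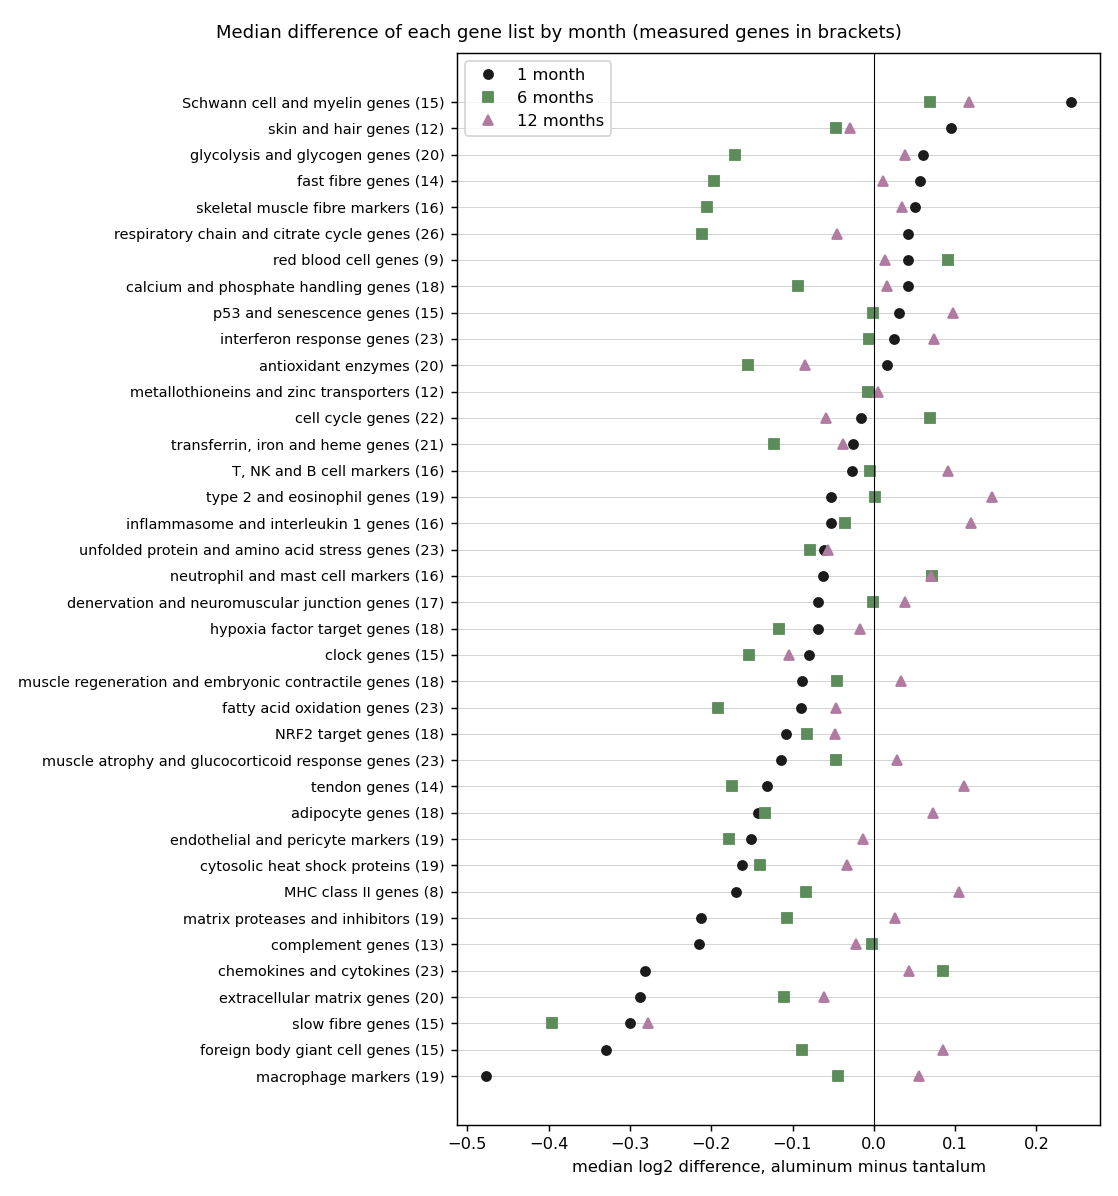
Median aluminum minus tantalum difference (log2) of the gene lists at 1 month (circles), 6 months (squares) and 12 months (triangles), with the number of measured genes in brackets. The macrophage list stood at -0.48 at 1 month and at -0.04 and 0.06 at 6 and 12 months.

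Set against the other 7 metals at 1 month, the aluminum arrays were low in many of these genes. In this added comparison 61 probe sets passed (0.266% of those tested), 57 lower and 4 higher with aluminum, and Sec23b and Ly6e were the 2 that also passed against tantalum. By contrast, 39 passed for tantalum against the same metals (0.17%), 32 higher and 7 lower. The smallest p-values with aluminum belonged to P2ry13, Fkbp10, Ctss, Rarres1 and Alox5. P2ry13, an ADP receptor of myeloid cells, measured 5.80, 5.45 and 5.53 in the aluminum arrays, where the other metals had a lowest, median and highest value of 5.65, 6.24 and 6.99 (-0.71 ± 0.13, adjusted p = 0.00971). Fkbp10, a collagen chaperone of the endoplasmic reticulum, measured 6.46, 5.62 and 6.25, against 6.46, 6.93 and 7.70 in the other metals (-0.83 ± 0.16, adjusted p = 0.00971). Cathepsin S (Ctss), which trims the invariant chain during antigen presentation, measured 6.56, 6.57 and 6.19, against 6.60, 7.28 and 8.32 (-0.93 ± 0.18, adjusted p = 0.00971). For Ctss every aluminum array lay below the lowest of the 21 other arrays. Alox5, the enzyme that starts leukotriene synthesis, measured 4.72, 5.03 and 5.16, against 5.29, 5.68 and 6.32, and likewise did not overlap (-0.75 ± 0.15, adjusted p = 0.0144). Rarres1 differed by -0.83 ± 0.16 (adjusted p = 0.0144). These genes were named by their p in this comparison, so the separation of Ctss and Alox5 was partly fixed by the choice.

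List members among the 57 were of macrophages, matrix and antigen presentation. From the macrophage list 4 of 19 passed, namely Laptm5 (-0.82 ± 0.17, adjusted p = 0.0166), Fcer1g (-0.88 ± 0.18, adjusted p = 0.0198), Cybb (-1.08 ± 0.23, adjusted p = 0.0212) and C1qb, a chain of complement C1q (-0.77 ± 0.18, adjusted p = 0.0403). From the matrix list 2 of 20 passed, Fn1 (-0.78 ± 0.19, adjusted p = 0.0436) and lumican, Lum (-0.75 ± 0.19, adjusted p = 0.0473). From the MHC class II list 1 of 8 passed, the invariant chain Cd74 (-0.81 ± 0.20, adjusted p = 0.0459), and from the giant cell list 1 of 15, Ctss. For each of these 8 genes all 7 metal means lay above the aluminum mean. The genes were taken because they passed as lower against these metals, so that outcome is largely fixed by the choice. The pan-leukocyte phosphatase Ptprc (-1.08 ± 0.25, adjusted p = 0.036) and apolipoprotein E (Apoe, -0.79 ± 0.19, adjusted p = 0.0403) belonged to no list used here and also passed. Without the first aluminum pool 15 probe sets passed, and without the second or the third 0 did. For tantalum the count was 16, 10 and 67 without its first, its second and the third pool.

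By the mean level of the macrophage and matrix lists at 1 month, aluminum stood below each of the other metals. The macrophage list averaged 6.65 ± 0.12 with aluminum and 7.17 ± 0.48 with tantalum (SD, n = 3 each), and the lowest, median and highest arrays of the other metals were at 6.71, 7.15 and 7.98. All 7 metal means lay above aluminum, depleted uranium lowest with 6.85 and nickel highest with 7.75, while 4 of them lay below tantalum. The matrix list averaged 8.92 ± 0.15 with aluminum and 9.29 ± 0.33 with tantalum, where the other arrays had 8.98, 9.31 and 10.10. Here too all 7 metal means lay above aluminum, and 3 lay below tantalum. The lists of 19 and 20 genes gave medians of -0.62 and -0.42 for aluminum against the other metals, and of -0.07 and -0.09 for tantalum against them. The giant cell list averaged 6.62 ± 0.05 with aluminum and 7.19 ± 0.42 with tantalum, and 6 of the 7 other metals had means below tantalum.

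**Figure D3:**
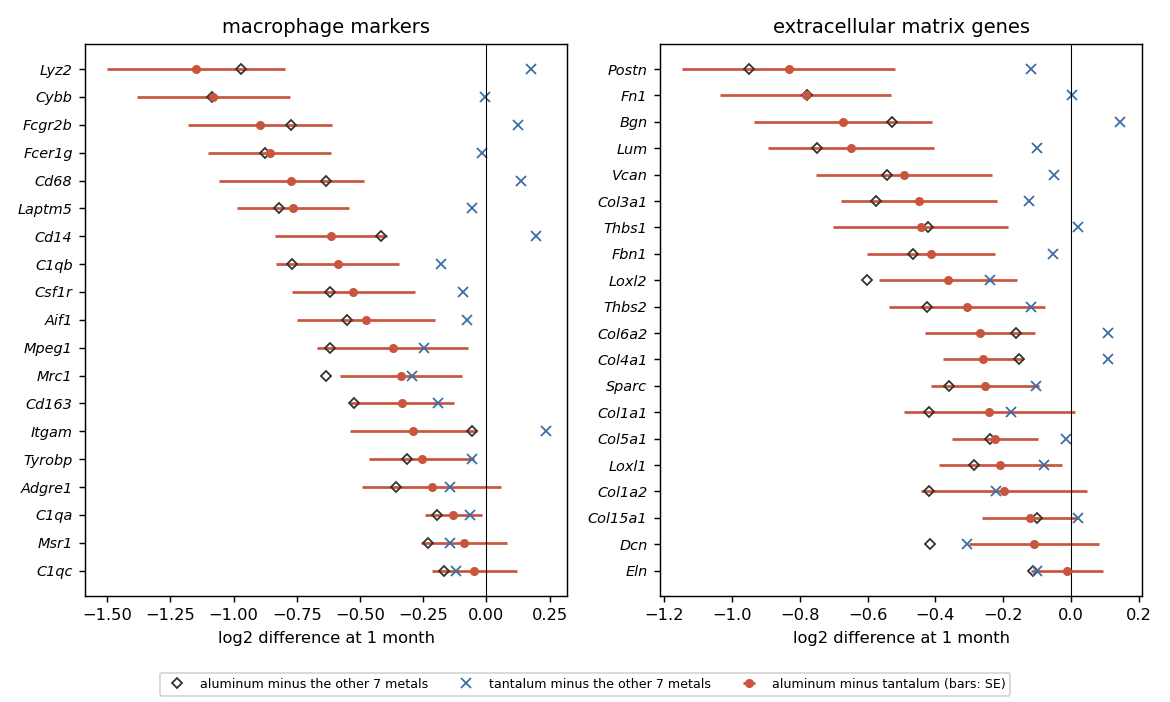
Differences (log2) at 1 month for each measured macrophage and matrix gene. Points with SE bars are aluminum minus tantalum, diamonds aluminum minus the other 7 metals, and crosses tantalum minus the other 7 metals. All points of both lists lie below 0, while the crosses lie on both sides of it.

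Among the probe sets higher with tantalum than with the other metals, the named genes with the smallest p were Sarnp, Fxyd1, Trmt112 and Cacng6, in this order. Sarnp, an mRNA export factor, lay at 0.60 ± 0.10 (adjusted p = 0.000318). Trmt112, an activator of methyltransferases, lay at 0.42 ± 0.07 (adjusted p = 0.000987), and Cacng6, a calcium channel subunit, at 0.66 ± 0.12 (adjusted p = 0.00214). Sarnp measured 8.56, 8.67 and 8.69 with aluminum, against 9.15, 9.08 and 8.94 with tantalum. Cacng6 was also high with aluminum against the other metals (0.55 ± 0.12, adjusted p = 0.0264), with 9.22, 9.45 and 9.46 in aluminum arrays, 9.39, 9.51 and 9.55 in tantalum arrays, and 8.33, 8.78 and 9.50 as the lowest, median and highest of the other metals. The difference between aluminum and tantalum was -0.11 ± 0.16 (adjusted p = 0.916). Ccl9 was the 1 list member that passed for tantalum (1.16 ± 0.28, adjusted p = 0.0475). That call rests on single pools: it was lost without the first tantalum pool (adjusted p = 0.221) and without the third (0.61, adjusted p = 0.538), and also with array weights and with an intensity trend.

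Slow fibre genes were low with aluminum at each of the 3 months. In the mean over months 14 of 15 were below 0, with a median of -0.34, and by month the medians were -0.30, -0.40 and -0.28. None passed the test. The months differ in what stands behind the median. At 1 month the list mean was 10.18, 10.06 and 10.28 with aluminum, against 10.80, 10.87 and 9.84 with tantalum. The third tantalum pool, the one with the highest macrophage level, was the lowest of the 6, so the groups overlapped. Without it the median was -0.70, and without the first or without the second tantalum pool it was -0.15 and -0.12. At 6 months the list mean was 9.78, 10.11 and 9.14 with aluminum, against 10.14, 10.11 and 9.78 with tantalum, again with overlap and with 1 low aluminum pool, without which the median was -0.07. Without the second aluminum pool it was -0.65. At 12 months it was 10.07, 10.05 and 9.81 with aluminum, against 10.23, 10.28 and 10.30 with tantalum. There the groups were apart, and 7 of the 15 genes did not overlap, each lower with aluminum, where 6.29% of all probe sets did so and 7.8% did the reverse.

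Casq2, the calcium-binding protein of the sarcoplasmic reticulum in slow and cardiac muscle, had the largest difference of the slow genes named by the rule, -0.59 ± 0.25 over the 3 months. It measured 10.06, 9.84 and 9.42 with aluminum at 12 months, against 10.60, 10.57 and 10.43 with tantalum. At 1 month it measured 10.14, 9.79 and 10.35 with aluminum, and 11.12, 10.97 and 10.10 with tantalum. The third tantalum pool again lay among the aluminum pools. Slow tropomyosin (Tpm3) measured 12.04, 11.90 and 11.66 with aluminum at 12 months, against 12.27, 12.25 and 12.21 with tantalum, and its mean difference was -0.41 ± 0.19. The slow myosin light chain Myl3 measured 12.95, 12.94 and 12.85 with aluminum at 12 months, and 13.09, 13.19 and 13.28 with tantalum, with a mean difference of -0.34 ± 0.14. In all 3 genes the 12-month groups were apart. The slow myosin heavy chain Myh7 overlapped, with 12.69, 12.47 and 12.33 with aluminum at 12 months and 12.70, 12.71 and 12.62 with tantalum, and its mean difference was -0.30 ± 0.16.

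At 3 months, which is outside the 3 months described, the slow fibre list lay the other way. Its mean was 11.00, 10.16 and 10.98 with aluminum, against 10.21, 9.96 and 9.75 with tantalum, and its median difference was 0.81 with 14 of 15 genes above 0. Casq2 measured 11.44, 10.05 and 11.26 with aluminum at that time and 9.93, 9.77 and 9.35 with tantalum. The first and the third aluminum pools were high and the second was near the tantalum pools.

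**Figure D4:**
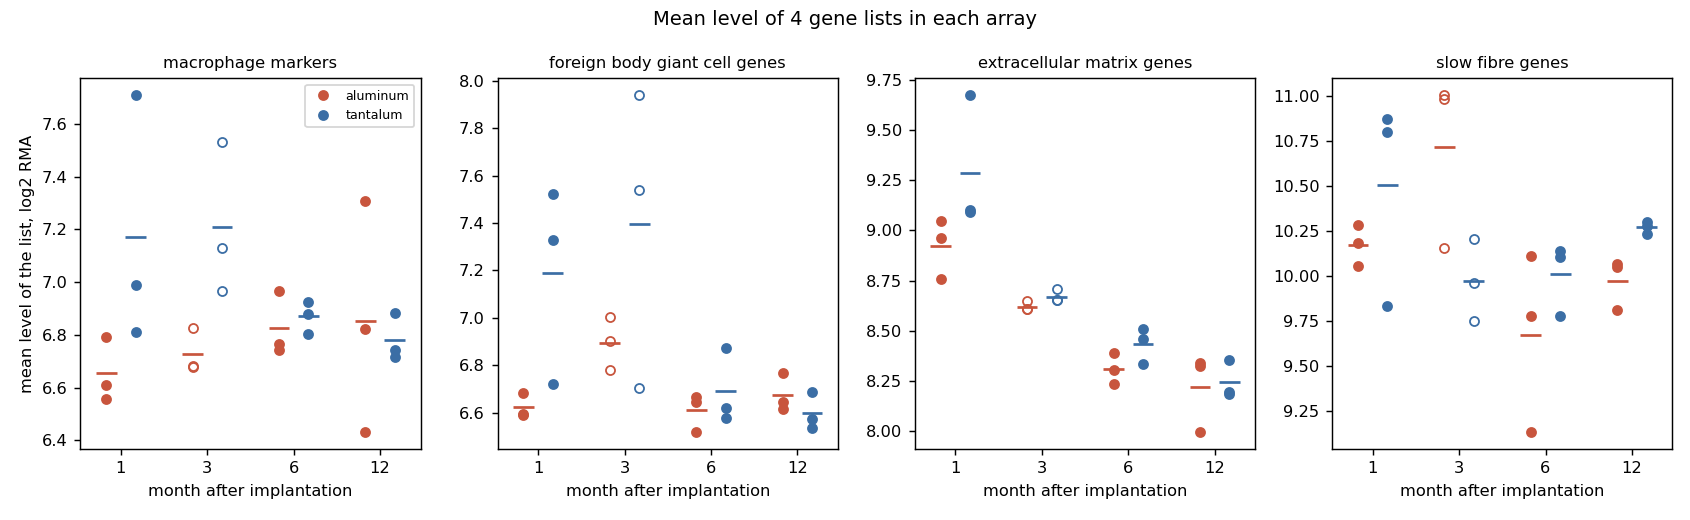
Mean log2 level of the macrophage, giant cell, extracellular matrix and slow fibre lists in each aluminum and tantalum array at 1, 3, 6 and 12 months, with 3 months as hollow marks. The third tantalum array of 1 month is the highest of its group in the macrophage list (7.71) and the lowest in the slow fibre list (9.84).

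At 6 months no probe set passed (0% of those tested), the lowest adjusted p was 0.667, and limma gave 1129 with an unadjusted p under 0.05 where 1148 are expected by chance. The named genes are thus values that did not pass. St3gal4, a sialyltransferase, measured 6.08, 6.37 and 6.08 with aluminum, against 6.71, 6.91 and 6.76 with tantalum (-0.62 ± 0.15). Reep3, a protein that shapes the endoplasmic reticulum, measured 7.89, 7.73 and 7.64 with aluminum, and 8.40, 8.20 and 8.13 with tantalum (-0.49 ± 0.12). Pdzd11, Cdk5rap1 and Bcorl1 were the other lower genes by this rule. On the higher side Elovl4, an enzyme that lengthens very long fatty acids, measured 4.68, 5.05 and 4.51 with aluminum, against 4.06, 4.07 and 4.04 with tantalum. Sh2d1a, a signalling adaptor of T cells, measured 4.40, 3.88 and 4.19 with aluminum, and 3.29, 3.60 and 3.49 with tantalum. Both lay below 5.45, under which the dimmest 30% of probe sets fall. Or6c69d, Vom2r59 and the keratin Krt28 were the other higher genes by the rule.

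Energy metabolism genes were slightly lower with aluminum at 6 months. All 26 respiratory chain and citrate cycle genes were below 0, with a median of -0.21, and 5 of them did not overlap, where 5.07% of all probe sets were apart in this direction and 3.96% in the other. Also below 0 were all 20 glycolysis and glycogen genes, with a median of -0.17, and 22 of 23 fatty acid oxidation genes, with a median of -0.19. No member of these lists passed. The median over all probe sets was -0.03. Idh2, the mitochondrial isocitrate dehydrogenase, measured 11.32, 11.73 and 11.43 with aluminum, against 11.90, 11.80 and 11.76 with tantalum (-0.33 ± 0.11). Sdha, the catalytic subunit of succinate dehydrogenase, measured 10.82, 11.26 and 11.27 with aluminum, and 11.38, 11.37 and 11.50 with tantalum (-0.30 ± 0.09). Fast myosin 2A (Myh2) measured 12.17, 12.91 and 12.07 with aluminum, against 13.06, 12.87 and 13.03 with tantalum (-0.61 ± 0.14, adjusted p = 0.667). In Myh2 the second aluminum pool lay at the tantalum level. The first aluminum pool carried much of the respiratory list: without it the median was -0.07. With that pool kept, a second quantile normalization by itself gave -0.08. All 16 muscle fibre markers were below 0 with a median of -0.20, and without the first aluminum pool their median was 0.01. The glycolysis and fatty acid oxidation medians were not run under these alternatives.

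At 12 months no probe set passed (0%), the lowest adjusted p was 0.136, and limma gave 2143 with an unadjusted p under 0.05. Same-numbered arrays of the 2 metals deviated together at 6 and 12 months, and with the replicate number as a block 5 probe sets passed at 12 months. They were Ripk3, Ltk, Lysmd3, Eif4e and 1 without a symbol. That block also covers 1 month, where the numbers did not pair the arrays, and with the block at 6 and 12 months only 4 passed, without Ltk. Ltk, a receptor tyrosine kinase, measured 5.62, 5.80 and 5.75 with aluminum, against 4.79, 5.02 and 4.93 with tantalum (0.81 ± 0.17, adjusted p = 0.136, 0.0494 with the block and 0.0617 with the block at 6 and 12 months only). Ripk3, the kinase of necroptosis, measured 6.22, 6.02 and 5.99 with aluminum, and 5.60, 5.34 and 5.23 with tantalum (0.68 ± 0.16, adjusted p = 0.3, 0.029 with the block and 0.0352 with the block at 6 and 12 months only). Both genes were also named by the rule, which takes only genes whose groups are apart, so their separation was fixed by the choice. Ltk was among the dimmest 30% of probe sets by mean level over all arrays. Eif4e, the cap-binding protein of translation, and Lysmd3, a membrane protein with a LysM domain, were lower with aluminum in the block fit, by -0.37 (adjusted p = 0.0407) and -0.57 (adjusted p = 0.029).

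Further genes named at 12 months did not pass with or without the block. Plcd3, a phospholipase C, measured 6.91, 6.72 and 6.48 with aluminum, against 6.03, 6.06 and 6.33 with tantalum (0.56 ± 0.12). Il5, the cytokine that sustains eosinophils, measured 4.99, 4.66 and 4.53 with aluminum, and 4.18, 3.95 and 4.19 with tantalum (0.62 ± 0.15, adjusted p = 0.3). Its values lay below 5.45, under which the dimmest 30% of probe sets fall. The tantalum values of Il5 were near the medians of the control probe sets in those arrays, 3.88, 4.17 and 4.11. Sema4g, a semaphorin, measured 6.78, 6.72 and 6.76 with aluminum, against 6.20, 6.31 and 6.07 with tantalum (0.56 ± 0.14, adjusted p = 0.3). The rule took only genes whose groups were apart, so the separation of these higher genes was fixed by the choice. On the lower side Btbd9 measured 7.32, 6.99 and 7.64 with aluminum, and 7.79, 7.82 and 8.20 with tantalum (-0.62 ± 0.16, adjusted p = 0.3). Tank, an adaptor that binds TRAF proteins, measured 8.24, 8.15 and 8.20 with aluminum, against 8.59, 8.63 and 8.48 with tantalum (-0.37 ± 0.10). The separation of the lower genes was fixed in the same way.

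The list that holds Il5, of type 2 immunity and eosinophil genes, had 13 of 19 members above 0 at 12 months, with a median of 0.14. Of the 19 members 6 did not overlap on the higher side and 1 did not on the lower, beside 7.8% and 6.29% of all probe sets. After a second quantile normalization the median was 0.09. Prg2, the major basic protein of eosinophil granules, measured 7.55, 7.57 and 7.26 with aluminum, against 6.82, 6.91 and 7.21 with tantalum (0.48 ± 0.16). Siglec5, a sialic acid receptor of myeloid cells, measured 6.45, 6.29 and 6.52 with aluminum, and 5.89, 6.14 and 5.41 with tantalum (0.60 ± 0.21). At 1 month the list's median was -0.05 and at 6 months 0.00. One array stood out in another immune gene. Cxcl13 measured 5.59, 6.92 and 10.29 with aluminum at 12 months, against 5.85, 5.55 and 5.30 with tantalum (2.03 ± 0.67). The third aluminum array had the highest macrophage list mean of its group, 7.31, where the other 2 had 6.43 and 6.82 and the tantalum arrays had 6.74, 6.88 and 6.72. The part of macrophage RNA in the Cxcl13 level was not tested.

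In the mean over 1, 6 and 12 months, 9 arrays against 9, no probe set passed (0%). The lowest adjusted p was 0.117, and limma gave 2844 with an unadjusted p under 0.05, 1324 higher and 1520 lower with aluminum. Without the third tantalum pool of 1 month 9 passed. With the replicate number as a block 3 passed, Reep3, Ctdspl2 and 1 without a symbol, and with the block at 6 and 12 months only 2 did. Il20rb, a receptor chain for cytokines of the interleukin 20 family, had one of the smallest p-values. It measured 7.32, 7.18 and 7.37 with aluminum at 1 month, against 7.11, 6.64 and 7.13 with tantalum. At 6 months it measured 7.09, 7.21 and 6.97 with aluminum, and 6.85, 6.71 and 6.81 with tantalum. At 12 months it measured 7.59, 7.44 and 7.04 with aluminum, and 7.10, 6.85 and 7.05 with tantalum. The groups were apart at 1 and 6 months and overlapped at 12, and the mean difference was 0.33 ± 0.07 (adjusted p = 0.117). Reep3, named at 6 months, was lower over the 3 months by -0.32 ± 0.07 (adjusted p = 0.117, 0.00855 with the block and 0.0141 with the block at 6 and 12 months only). At 1 month it measured 8.07, 8.22 and 7.94 with aluminum, against 8.08, 8.24 and 8.38 with tantalum, and at 12 months 7.83, 7.66 and 7.70 with aluminum, against 8.19, 8.07 and 7.89 with tantalum.

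The other genes named by the mean had adjusted p of 0.118 to 0.172. On the higher side these included the homeobox factor Meis1 (0.31 ± 0.07), Wnt4 (0.31 ± 0.07), the adhesion receptor Adgrb2 (0.67), the bHLH factor Mesp1 (0.33) and the interferon-induced Oasl (0.44). On the lower side they included Fnbp1l, a protein that links membranes to actin (-0.51 ± 0.12), the phosphatase Phlpp1 (-0.25), the integrator subunit Ints6 (-0.30), Scyl3 (-0.28) and Septin9 (-0.30). Mesp1 at 1 month was also higher with aluminum than with the other metals (0.51 ± 0.12, adjusted p = 0.0318). Over the 3 months against the other metals no probe set passed (0%; 1087 had an unadjusted p under 0.05 in limma, and the lowest adjusted p was 0.999). In that comparison Il20rb was at 0.19 and Mesp1 at 0.25.

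**Figure D5:**
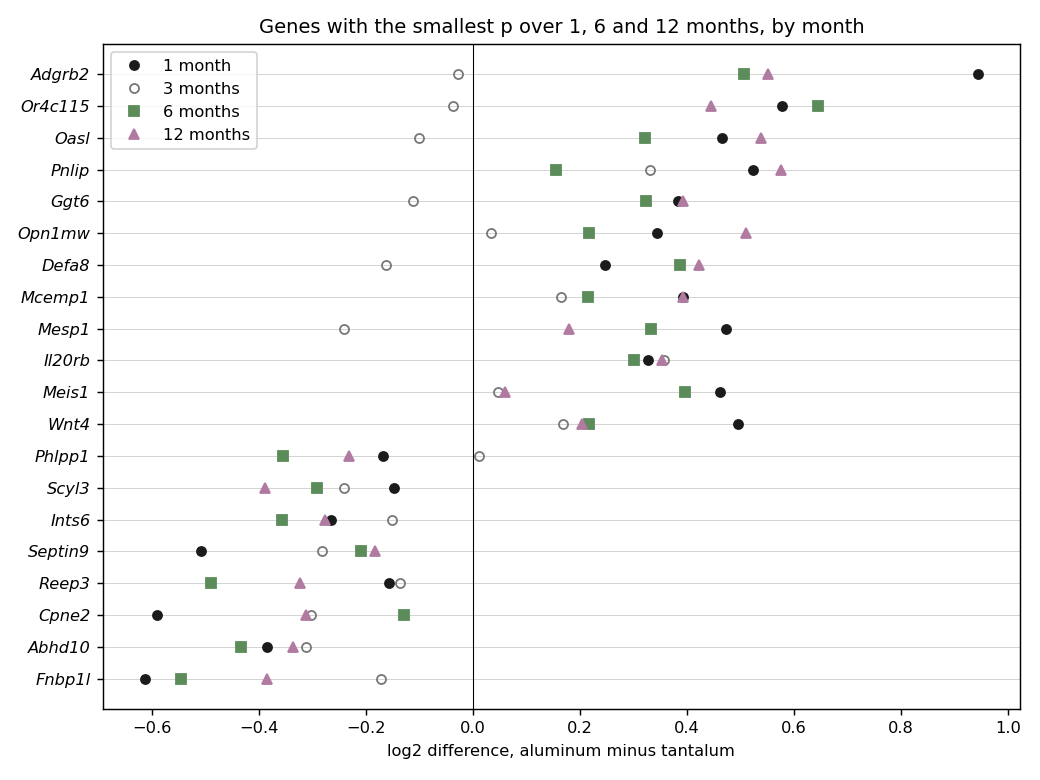
Aluminum minus tantalum difference (log2) at 1, 6 and 12 months, and as hollow marks at 3 months, for the 20 genes named by the mean over months. The rule chose genes with 1 sign at 1, 6 and 12 months, so that shared sign is fixed by the choice. None passed in the fit on all arrays without the replicate block, and Reep3 passed with the block.

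The moderated F test of a change of the difference between the 3 months called no probe set (0%; 1311 had an unadjusted p under 0.05 in limma), and its lowest adjusted p was 0.0581, for Fxyd1 and Sun1. The single contrast of 12 months against 1 month, added after the data had been seen, called 6 (0.0261%). Fxyd1 averaged 10.40 ± 0.11, 10.35 ± 0.13 and 9.96 ± 0.15 with aluminum at 1, 6 and 12 months, against 11.03 ± 0.11, 10.33 ± 0.06 and 9.85 ± 0.11 with tantalum (SD, n = 3 each). The aluminum minus tantalum difference moved by 0.74 ± 0.15 (adjusted p = 0.0301). Myadm, a membrane protein of the myeloid-associated differentiation marker family, averaged 9.57, 9.16 and 9.07 with aluminum, and 10.23, 9.29 and 8.72 with tantalum, a move of 1.01 ± 0.21 (adjusted p = 0.0301). Both genes had lower means at the later months with either metal, and the step down was larger with tantalum. Rhog averaged 7.50, 7.53 and 7.52 with aluminum, against 8.04, 7.53 and 7.28 with tantalum (0.78 ± 0.15, adjusted p = 0.0237). Sun1, which ties the nuclear envelope to the cytoskeleton, averaged 8.64, 8.80 and 8.87 with aluminum, and 9.05, 8.74 and 8.53 with tantalum (0.74 ± 0.14, adjusted p = 0.0196). The Rhog means were close together with aluminum and were lower at each later month with tantalum, and those of Sun1 were higher at each later month with aluminum and lower with tantalum. Trmt112 (0.65 ± 0.14, adjusted p = 0.038) and the SNARE protein Bnip1 (-0.63 ± 0.13, adjusted p = 0.0301) were the other 2. The count was 0 without the second aluminum pool of 1 month or without the second or the third tantalum pool of 12 months, and 17 without the first aluminum pool of 12 months.

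Set against the mean of 1, 6 and 12 months, the 3-month aluminum minus tantalum difference departed for 45 probe sets (0.196%), 35 of them higher and 10 lower at 3 months. Kcnma1, the large-conductance calcium-activated potassium channel, measured 10.17, 9.42 and 10.16 with aluminum at 3 months, against 9.05, 8.77 and 8.65 with tantalum, and its 3-month difference lay 1.33 above that of the other months. Rcan2, a regulator of calcineurin, measured 11.09, 10.38 and 10.88 with aluminum, and 10.29, 10.02 and 9.99 with tantalum (0.91 above). Myod1, the myogenic transcription factor, measured 6.76, 7.51 and 7.27 with aluminum, against 8.15, 7.97 and 8.09 with tantalum, and lay at -1.20 relative to the other months. Ripk3, higher with aluminum at 12 months, measured 5.48, 5.43 and 5.20 with aluminum at 3 months, against 6.07, 6.05 and 6.18 with tantalum (-0.97 relative to the other months). In all 4 genes the 3-month groups did not overlap, which is partly fixed by their choice through this comparison. Of all probe sets at 3 months, 7.68% were apart with aluminum above and 9.45% with aluminum below. The adjusted p of the 10 genes named for this comparison ran over 0.0135 to 0.0285. The count rests on single pools: it was 0 without the first aluminum pool of 3 months, 1 without the third, 3 without the second tantalum pool, 9 without the third, and 269 without the second aluminum pool. Leaving out the third tantalum pool of 1 month gave 128, leaving out the second aluminum pool of 1 month 23, the second and the third of 6 months 68 and 10, the third of 12 months 28, the first and second tantalum pools of 1 month 21 and 8, and the first of 6 months 16.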

How the data were processed

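Gastrocnemius RNA was measured on 105 Clariom S Rat arrays, and 18 of them make up the comparison of aluminum with tantalum. The authors deposited log2 expression values made with RMA in oligo (R 4.0.1), per the submitters' processing notes. RMA corrects background, forces all arrays onto one distribution of intensities and sums the probes of a gene, so a shift of all genes together cannot be seen. Whether all arrays went through a single run, and the build of the array annotation, are not given in the sources used here. Of 22977 probe sets, 23 controls were left out and 22954 were tested, of which 14855 carried 1 gene symbol. The other 8099 carried none or more than 1, and these are called without a symbol here.

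One mean per metal and month was fitted over all 35 groups with limma 3.58.1 (R 4.3.3, lmFit and eBayes, two-sided, 70 residual degrees of freedom), with Benjamini-Hochberg adjustment over all tested probe sets and an adjusted p under 0.05 as the threshold. Values after ± are standard errors of the fit, or SD where stated. The number of arrays limits the precision. With 3 arrays against 3, an exact permutation test could not go below 0.1.

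The genes, gene lists and tests were chosen with earlier results of these data known. By rule, the mean over months names up to 12 higher and 8 lower genes with 1 sign at all 3 months, each month up to 5 in each direction whose groups are apart, and each list up to 4 members by their p in the mean over months. Other list members were named after their values were seen. The 3 comparisons that were added after the data had been seen set aluminum and tantalum each against the other 7 metals at 1 month, and 12 months against 1 month. As alternatives, the replicate number was entered as a block, dim probe sets were dropped, the values were quantile normalized once more, eBayes was run with a trend and robust priors, arrays were weighted, fewer arrays were fitted, and each array was left out. The labels' numbers paired the arrays at 6 months (correlations of deviations 0.27, 0.30 and 0.28) and at 12 months (0.11, 0.14 and 0.19), where every one was over 0.1, and did not at 1 month (-0.06, 0.05 and -0.04).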

Additional observations from a re-analysis of the deposited data

Results flagged for a closer look

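The aluminum minus tantalum difference moved between 1 and 12 months, by a test of the change itself (limma, adjusted p of 0.0196 to 0.038), for 6 named genes. The change, on the log2 scale and as 12 months minus 1 month, was 1.01 for Myadm, 0.778 for Rhog, 0.744 for Sun1, 0.742 for Fxyd1, 0.654 for Trmt112 and -0.625 for Bnip1. In the first 5 genes the aluminum mean was below the tantalum mean at 1 month and above it at 12 months. In Bnip1 it was above at 1 month and below at 12 months. No probe set passed at 12 months by itself. The genes were chosen by this change, so opposite signs are favoured by the choice. The contrast was added after the data had been seen. The moderated F test over 1, 6 and 12 months called 0, and a fit on the 18 arrays alone called 0 for this contrast.

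The difference at 3 months departed from the mean of 1, 6 and 12 months (limma, adjusted p of 0.0135 to 0.0285) for 10 named genes. It was higher at 3 months by 1.33 for Kcnma1, 1.1 for Arhgap24, 1.07 for Mid1ip1, 0.976 for P3h2 and 0.907 for Rcan2. It lay at -1.4 for Slamf6, -1.2 for Myod1, -1.05 for Mical2, -0.971 for Ripk3 and -0.771 for Jag1. Slamf6, a receptor of lymphocytes, measured 5.04, 4.58 and 5.04 with aluminum at 3 months, against 6.18, 6.88 and 5.49 with tantalum. Jag1, a Notch ligand, measured 6.24, 6.23 and 6.86 with aluminum, against 7.41, 7.28 and 7.05 with tantalum. In both genes the 3-month arrays were apart, which is partly fixed by the choice of the genes through this comparison.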

How the results depend on the processing

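The counts of probe sets that passed depended on the processing, and the cause was not tested. With the replicate number as a block, 3 passed in the mean over months, 86 at 1 month, 5 at 12 months, 39 in the F test of change between months, 69 for 3 months against the others, 68 for 12 months against 1 month, 127 for aluminum and 198 for tantalum against the other metals at 1 month. With the block at 6 and 12 months alone, where the numbers paired the arrays, these counts were 2, 84, 4, 40, 97, 71, 119 and 204. At 6 months and for aluminum against the other metals over months the count was 0 in both. At 1 month the numbers did not pair the arrays. Without the dimmest 30% of probe sets 14 passed at 1 month, 4 in the F test and 15 for 12 months against 1 month. A second quantile normalization gave 5 in the F test and 17 for 12 months against 1 month, and an intensity trend with robust hyperparameters gave 2 in the F test. Array weights gave 24 at 1 month, 2 in the F test, 76 for 3 months, 115 for aluminum and 76 for tantalum against the other metals. A fit on the 18 arrays alone gave 0 at 1 month and 0 for 12 months against 1 month, and a fit on the 6 arrays of 1 month gave 0.

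Leaving out each array in turn gave counts of 0 to 9 in the mean over months, 0 to 21 at 1 month, 0 to 1 at 6 months (1 without aluminum replicate 2), 0 to 3 in the F test, 0 to 269 for 3 months, 0 to 17 for 12 months against 1 month, 0 to 15 for aluminum and 10 to 67 for tantalum against the other metals at 1 month. At 12 months the count was 0 in each. The median of the muscle fibre markers at 6 months was 0 after a second quantile normalization and ran over -0.341 to 0.01383 as arrays were left out, against -0.20. At 1 month the macrophage list's median ran over -0.631 to -0.156 and the matrix list's over -0.414 to -0.128 across alternatives. The median of the slow fibre list in the mean over months ran over -0.448 to -0.242.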

Other observations

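Of 19 cytosolic heat shock genes, 18 were below 0 in the mean over months, with a median of -0.12, beside -0.00 over all probe sets, and none passed. The members with the smallest p were Hspb3 (-0.23 ± 0.08), Hspb7 (-0.53 ± 0.21), Hspa1l (-0.23 ± 0.10) and Hspb6 (-0.23 ± 0.11). Hspb7, a small heat shock protein of heart and skeletal muscle, was at -0.37, -0.69 and -0.53 at 1, 6 and 12 months. Hspb6 was at -0.51, -0.37 and 0.19, so its sign was not shared by the months.

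Of 15 clock genes, 14 were below 0 in the mean over months, with a median of -0.05. The nuclear receptor Nr1d2, a repressor in the circadian clock, was at -0.08, -0.23 and -0.37 at 1, 6 and 12 months and did not pass. The hour at which tissue was taken was not tested. Other lists had members on both sides of 0 in the mean. Of 22 cell cycle genes 11 were above and 11 below 0, of 16 T, NK and B cell markers 9 were above and 7 below, and of 23 interferon response genes 10 were above and 13 below.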
